A study of Homo sapiens with 6 samples.

Results

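The 9 genes CDKN1A, MDM2, GADD45A, SESN1, SESN2, ZMAT3, FDXR, TP53INP1 and RRM2B, all textbook transcriptional targets of the tumor suppressor p53, were examined in PC9 cells with and without knockdown of RBM10. They were chosen by name, as 9 of the 16306 genes of the deposited gene table, and all 9 passed the filter on low counts that left 12620 genes. PC9 cells come from a human lung adenocarcinoma and carry the EGFR 19Del mutation, and RBM10 is an RNA-binding splicing factor. RNA-seq covered 3 libraries of cells given the control shRNA (sh-NC, replicates 1 to 3) and 3 of cells given an RBM10 shRNA (shRBM10, libraries A, B and C). Only library A could be matched to a numbered sample, and the RBM10 shRNA is not named in the sources used here, so the 3 shRBM10 libraries may not share an shRNA. Nothing states that the libraries came from separate cultures, so the p-values measure the spread between these libraries, which may be technical.

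p53 is a transcription factor that accumulates after DNA damage and other stress, binds a palindromic response element of paired decamers, and switches on genes for cell-cycle arrest, DNA repair, antioxidant defence and cell death. MDM2, itself a target, marks p53 for degradation and closes a negative feedback loop. Several of these genes also respond to factors other than p53, among them the stress factor ATF4 and the FOXO factors.

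Of the 13 promoter windows that RefSeq gives for 6 of the 9 genes (GRCh38.p14, 250 bases before to 50 after a start site), 5 windows of 4 genes (MDM2, SESN1, FDXR and ZMAT3) held a match to the p53 consensus. Only 1 match, with the fewest mismatches, was kept and marked per window, so further matches in a window are not marked. A pair of the 5 are MDM2 windows shifted by a few bases that share the same match, so the 5 windows give 4 distinct kept matches. The match asked for 2 decamers, a spacer of up to 13 bases and no more than 3 mismatches, on both strands. Each decamer also had to hold the C and the G of the consensus core. Among all 35116 RefSeq windows of the same length 12.8% held such a match, 2.93% with no more than 2 mismatches and 0.402% with no more than 1. GADD45A, TP53INP1 and RRM2B were not matched to a window. The windows with a match are printed, 1 per gene and each in the direction of transcription, with the decamers in capitals, so that the elements can be set beside the counts of these 4 genes. They lie at chr12:68808767-68809066 (plus strand) for MDM2, chr6:109008939-109009238 (minus strand) for SESN1, chr17:74872945-74873244 (minus strand) for FDXR and chr3:179071760-179072059 (minus strand) for ZMAT3.
MDM2: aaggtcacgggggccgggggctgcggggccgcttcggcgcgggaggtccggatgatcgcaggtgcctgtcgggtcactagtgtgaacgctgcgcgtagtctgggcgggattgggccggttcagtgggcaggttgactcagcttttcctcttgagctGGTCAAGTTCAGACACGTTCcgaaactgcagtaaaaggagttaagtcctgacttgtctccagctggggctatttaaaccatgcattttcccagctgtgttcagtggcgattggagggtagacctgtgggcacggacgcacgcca
SESN1: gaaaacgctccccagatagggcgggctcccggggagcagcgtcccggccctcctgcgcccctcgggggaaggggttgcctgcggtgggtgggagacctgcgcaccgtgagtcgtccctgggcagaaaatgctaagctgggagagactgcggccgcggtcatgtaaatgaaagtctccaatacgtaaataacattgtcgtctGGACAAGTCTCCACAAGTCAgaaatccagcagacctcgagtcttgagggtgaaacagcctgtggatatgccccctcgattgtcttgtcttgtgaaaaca
FDXR: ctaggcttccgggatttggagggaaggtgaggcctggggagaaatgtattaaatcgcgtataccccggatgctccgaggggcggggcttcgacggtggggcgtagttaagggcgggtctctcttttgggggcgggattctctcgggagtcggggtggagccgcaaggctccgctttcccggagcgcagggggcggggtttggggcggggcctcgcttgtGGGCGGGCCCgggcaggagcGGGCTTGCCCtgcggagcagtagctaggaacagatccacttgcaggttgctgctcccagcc
ZMAT3: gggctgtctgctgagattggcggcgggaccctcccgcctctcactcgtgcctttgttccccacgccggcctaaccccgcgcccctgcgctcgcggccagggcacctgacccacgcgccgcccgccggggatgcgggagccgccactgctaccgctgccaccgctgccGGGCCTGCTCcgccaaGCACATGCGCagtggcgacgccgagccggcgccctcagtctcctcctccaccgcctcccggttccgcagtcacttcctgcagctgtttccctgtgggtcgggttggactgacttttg
The MDM2 element had 2 mismatches and no spacer and began at position -94 from its start site, in the internal promoter of the gene. The SESN1 element had 3 mismatches and no spacer at position -49, the FDXR element 2 mismatches and a spacer of 10 bases at -31, and the ZMAT3 element 3 mismatches and a spacer of 6 bases at -83. In the shRBM10 libraries the mean counts of MDM2, SESN1 and ZMAT3 were above those of sh-NC and that of FDXR was below. A match describes the letters of a window and does not show binding.

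The estimated counts on genes summed to between 16606408 and 18864257 per library. sh-NC replicate 2 stood apart, with a Pearson correlation of 0.940 and 0.942 to replicates 1 and 3 over genes against 0.992 between those, and with a TMM factor of 0.738 where the others had 1.03 to 1.08. Of the shRBM10 libraries, C was the closest to sh-NC replicates 1 and 3, with correlations of 0.982 and 0.981 over genes, and A the farthest, at 0.946 to both. These correlations run across genes, which are not independent replicates. Values below are normalized counts (counts scaled to a common library size with TMM factors) unless called otherwise. RBM10 was at 1431, 1183 and 1469 in sh-NC and at 537, 515 and 672 in shRBM10, which made the log2 fold change -1.24 (standard error 0.23, edgeR adjusted p = 0.10). It did not pass the threshold of an adjusted p under 0.05 with a log2 fold change beyond 1, but it did in DESeq2 (adjusted p = 0.00154) and, in edgeR, without sh-NC replicate 2 (-1.42, adjusted p = 0.0489) and with the GC trend removed as well (-1.08, adjusted p = 0.00713). All 6 epithelial markers were detected in every library. The lung lineage factor NKX2-1 and the surfactant genes SFTPB and SFTPC had at most 3 counts in any library, and of the retinal markers PDE6B and CRX had at most 3. PDE6A, another retinal marker, had 7 to 13 counts in sh-NC and 17 to 33 in shRBM10, and RCVRN was not analysed here. The endothelial markers PECAM1, VWF and CDH5 summed to 99.96 to 188 in sh-NC and to 49.3 to 69.0 in shRBM10, most of it CDH5, while the defining marker PECAM1 had 1 to 3 counts in every library. The fibroblast marker COL1A1 was at 102, 38.3 and 95.7 in sh-NC and at 99.6, 128 and 178 in shRBM10, with COL1A2 at no more than 2 counts, and the part of these differences in the results was not tested. In bulk RNA, fewer cells of a type and less RNA per cell cannot be told apart.

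The 9 genes did not move in a common direction. TP53INP1, SESN1, RRM2B, ZMAT3 and MDM2 had higher means in shRBM10, by 6.72-fold for TP53INP1 and between 1.76-fold and 2.80-fold for the others. SESN2, FDXR and GADD45A had higher means in sh-NC, by 1.87-fold, 1.77-fold and 1.58-fold, and CDKN1A by 1.14-fold. In the quasi-likelihood test of edgeR, 0 of the 9 were called, where 0.0158% of all genes tested were called. At an unadjusted p under 0.05, 4 of the 9 were higher in shRBM10, where 15.7% of all genes were, and 3 were lower, where 8.6% of all genes were. DESeq2 called 2 of the 9, TP53INP1 and SESN1, both higher, where it called 3.73% of all genes higher and 0.998% lower. The groups did not overlap for 2 genes that were higher, TP53INP1 and SESN1 (13.8% of all genes), and for 3 that were lower, GADD45A, SESN2 and FDXR (16.2% of all genes). For a single gene the two-sided exact permutation test of 3 against 3 libraries cannot go below p = 0.1, the value of these 5 genes. At an unadjusted p under 0.05, 2 of the 9 were higher without sh-NC replicate 2 (11.5% of all genes) and 2 without library A (5.64%), and 1 was lower without library B (3.01%).

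**Figure D1:**
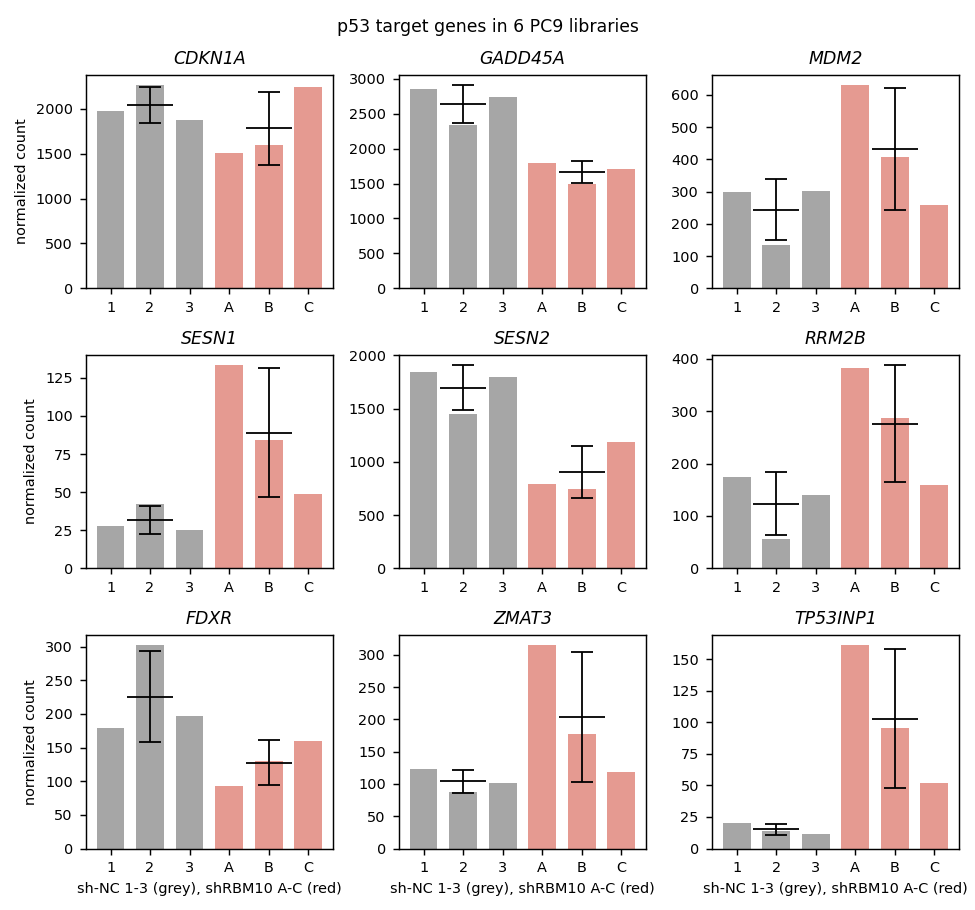
Normalized count of each of the 9 p53 target genes in each library (bars; sh-NC replicates 1 to 3 in grey, shRBM10 libraries A to C in red), with the mean and SD of each group as a black line and whiskers. TP53INP1 and SESN1 stood above sh-NC in every shRBM10 library, GADD45A, SESN2 and FDXR stood below, and for CDKN1A, MDM2, ZMAT3 and RRM2B the value of library C lay within the range of sh-NC.

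CDKN1A encodes p21, the inhibitor of cyclin-dependent kinases through which p53 halts the cell cycle. The gene (Entrez 1026) lies on chromosome 6 at 36676460 to 36687339 on the plus strand of GRCh38. It was measured at 1974, 2269 and 1881 in sh-NC replicates 1 to 3 and at 1506, 1596 and 2248 in shRBM10 libraries A to C. Libraries A and B were below every control and library C was close to the highest control, so the groups overlapped. The means were 2041 ± 203 and 1783 ± 405 (SD, n = 3 each), and the log2 fold change was -0.19 (standard error 0.24, edgeR adjusted p = 0.60). With the dependence of each library on the GC content of genes removed (the GC trend) it was 0.06 (standard error 0.14), so its sign depended on that trend. Leaving out a library moved it to -0.09 (without A), -0.12 (without B) or -0.44 (without C, unadjusted p = 0.0415 from edgeR's model).

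GADD45A, a small stress-response protein that binds CDK1 and PCNA and takes part in growth arrest and repair, was the most abundant of the 9 genes per kilobase. The gene (Entrez 1647) lies on chromosome 1 at 67685061 to 67688338 on the plus strand. It stood at 2855, 2333 and 2735 in sh-NC and at 1796, 1494 and 1714 in shRBM10. Every shRBM10 library lay below every control library, with means of 1668 ± 156 against 2641 ± 273 (SD, n = 3 each). The log2 fold change was -0.66 (standard error 0.21, unadjusted p = 0.0111, edgeR adjusted p = 0.156), and -0.57 with the GC trend removed. Its relative GADD45B had means of 738 ± 188 and 440 ± 86.6 (SD, n = 3 each) and a log2 fold change of -0.75 (unadjusted p = 0.0221 from edgeR's model), also with groups that did not overlap. GADD45G, the remaining relative, had means of 36.8 ± 5.13 and 31.5 ± 10.6 (SD, n = 3 each), with groups that overlapped.

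The feedback inhibitor MDM2, the ubiquitin ligase of p53, spans 68808176 to 68850686 on the plus strand of chromosome 12 (Entrez 4193). Its normalized count was 297, 134 and 301 in sh-NC and 631, 407 and 257 in shRBM10. Library A had the highest value and sh-NC replicate 2 the lowest, and library C lay among the controls. The sh-NC mean was 244 ± 95.2 and the shRBM10 mean 432 ± 188 (SD, n = 3 each), and the log2 fold change was 0.82 (standard error 0.41, edgeR adjusted p = 0.236). It was 0.23 with the GC trend removed, 0.44 without sh-NC replicate 2, 0.44 without library A and -0.01 with the GC trend removed and sh-NC replicate 2 left out. MDM4, the partner of MDM2 that masks the p53 activation domain, had a like pattern, with 223, 189 and 249 in sh-NC and 640, 267 and 184 in shRBM10. Its log2 fold change of 0.72 (edgeR adjusted p = 0.302) was 0.10 with the GC trend removed and 0.03 without library A.

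MDM2 is transcribed from an upstream promoter and from the internal promoter that holds the element printed above. In the transcript table, whose counts are estimates of how shared reads divide, the upstream-start transcript NM_002392 (start 68808176) had 181, 40 and 43 estimated counts for sh-NC replicates 1 to 3 against 443, 300 and 177 for libraries A to C. It held 34.9% of the MDM2 counts in sh-NC and 70.3% in shRBM10. No start was at hand for NM_001367990, XM_006719399 and XM_006719400, which held 28.1%, 13.6% and 19.7% of the counts in sh-NC. The MDM2 counts can therefore not be divided between the promoters. The transcript NM_001145337, which starts at 68809002 by the internal promoter, counted 5, 5 and 4 in the controls against 10, 10 and 9 in the knockdown libraries, or 1.85% and 2.22% of the gene. A pair of transcripts that start nearby, at 68809212, did not share this pattern. NM_001278462 had 5, 1 and 4 in sh-NC against 25, 0 and 0 in libraries A to C. NM_001145340 had 0, 0 and 4 in sh-NC and 0 in every shRBM10 library. The transcript NM_001367990 held 28.1% of the counts in sh-NC, at 0, 51 and 162 in its replicates, and 0 counts in every shRBM10 library. Across libraries of the same group the estimate moved between 0 and over 100 counts. For MDM2, edgeR's diffSpliceDGE gave an unadjusted Simes p of 0.688 over the 3 transcripts above its filter, NM_002392, XM_006719399 and XM_006719400. NM_001367990, NM_001145337, NM_001278462 and NM_001145340 were not among them, so the test does not cover their shares. Of the 8 genes that entered the test of transcript usage, SESN2 has a pair of rows with equal counts and cannot show a shift. On the transcripts above the filter, none of the other 7 genes were called, where 0.108% of the 8350 genes tested were called. Their unadjusted Simes p-values were 0.688 to 0.996, where 2.78% of all genes were under 0.05. TP53INP1 had no pair of transcripts above the filter and was not tested.

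The sestrins, stress-inducible proteins that restrain mTORC1 and support antioxidant defence, differed in direction. SESN1 (Entrez 27244, chromosome 6, 108986437 to 109094819, minus strand) was at 28.1, 42.4 and 25.3 in sh-NC and at 133, 84.3 and 49.0 in shRBM10. All 3 shRBM10 libraries stood above the highest control, library C by the smallest margin. The means were 31.9 ± 9.21 (SD, n = 3) and 88.9 ± 42.4 (SD, n = 3), and the log2 fold change was 1.49 (standard error 0.42, unadjusted p = 0.00557, edgeR adjusted p = 0.153). It was 0.98 with the GC trend removed (unadjusted p = 0.0172 from edgeR's model) and 1.64 without sh-NC replicate 2, and DESeq2 gave an adjusted p of 0.0374. The adjusted p ranged from 0.0374 to 0.566 over all alternatives.

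SESN2 (Entrez 83667, chromosome 1, 28259527 to 28282491, plus strand), which is also induced through ATF4 in the integrated stress response, went the other way. It was at 1846, 1454 and 1797 in sh-NC and at 794, 742 and 1188 in shRBM10, without overlap. The means were 1699 ± 213 (SD, n = 3) and 908 ± 244 (SD, n = 3), with a log2 fold change of -0.90 (standard error 0.25, unadjusted p = 0.00533, edgeR adjusted p = 0.153). With the GC trend removed it was -0.64 (unadjusted p = 0.00966 from edgeR's model). DESeq2's adjusted p for SESN2 was 0.0493 at a log2 change of -0.92, short of the fold limit. Per kilobase of transcript SESN2 was at 492 ± 61.8 in sh-NC against 9.10 ± 2.62 for SESN1, and at 263 ± 70.7 in shRBM10 against 25.3 ± 12.1 (SD, n = 3 each). SESN2 therefore stayed the more abundant sestrin in both groups. SESN3 had 0 to 2 raw counts in any library and was not tested.

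The SESN1 counts lay in 2 transcripts with separate starts. NM_014454, from the upstream start at 109094819, had estimates of 20, 25 and 17 for the controls against 83, 52 and 24 for libraries A to C. NM_001199933, from the start at 109009555, had 11, 6 and 11 in sh-NC and 47, 36 and 27 in shRBM10. Both were higher in library A and library B than in any control, and the shares of NM_014454 were 68.9% in sh-NC and 59.1% in shRBM10. The gene's unadjusted Simes p over both, from edgeR's diffSpliceDGE, was 0.826. The transcript from the start nearest to the printed SESN1 element was not analysed here.

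The genes of metabolism and DNA synthesis also differed in direction. RRM2B, the p53-inducible small subunit of ribonucleotide reductase that supplies deoxynucleotides for repair and for mitochondrial DNA, lies on chromosome 8 (Entrez 50484). It was at 174, 56.1 and 141 in sh-NC and at 382, 287 and 158 in shRBM10. Libraries A and B stood above the controls, library C lay among them, and sh-NC replicate 2 was the lowest. The means were 124 ± 60.8 (SD, n = 3) and 276 ± 112 (SD, n = 3), with a log2 fold change of 1.15 (standard error 0.46, unadjusted p = 0.0311, edgeR adjusted p = 0.181). This value was 0.43 with the GC trend removed and 0.72 without sh-NC replicate 2. Of the other subunits, the large subunit RRM1 was at 525, 482 and 567 in sh-NC and at 1868, 1283 and 430.3 in shRBM10, so library C was below every control. Its log2 fold change was 1.19 (edgeR adjusted p = 0.172), 0.63 with the GC trend removed and 0.71 without library A. RRM2, the cell-cycle-regulated small subunit, was at 2788 ± 222 and 2378 ± 252 (SD, n = 3 each) with a log2 fold change of -0.23 (edgeR adjusted p = 0.487).

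FDXR, the mitochondrial reductase that feeds electrons to ferredoxin for steroid and iron-sulfur cluster synthesis, spans 74862497 to 74873031 on the minus strand of chromosome 17 (Entrez 2232). It stood at 179, 303 and 197 in sh-NC and at 92.4, 130.3 and 159 in shRBM10. The groups did not overlap, although library C and sh-NC replicate 1 were close, and sh-NC replicate 2 was the highest. Means of 226 ± 67.0 (SD, n = 3) and 127 ± 33.6 (SD, n = 3) gave a log2 fold change of -0.82 (standard error 0.33, unadjusted p = 0.0336, edgeR adjusted p = 0.183). With the GC trend removed it was -0.51 (unadjusted p = 0.0589 from edgeR's model), above the limit of 0.05. Its transcript NM_024417 held 80.5% of the counts in sh-NC and 84.4% in shRBM10.

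ZMAT3 encodes a zinc finger protein that binds RNA and regulates splicing downstream of p53, and lies on chromosome 3 at 179017223 to 179072279 on the minus strand (Entrez 64393). Its values were 123, 87.6 and 101 in sh-NC and 315, 177 and 119 in shRBM10. Library C lay between the controls, and library A was far above them. The means were 104 ± 18.03 (SD, n = 3) and 204 ± 101 (SD, n = 3), with a log2 fold change of 0.97 (standard error 0.38, unadjusted p = 0.0308, edgeR adjusted p = 0.180). It was 0.25 with the GC trend removed and 0.51 without library A. The estimated counts of ZMAT3 were spread over 7 transcripts, and the most abundant, NM_001375826, held 46.6% of them in sh-NC and 42.2% in shRBM10.

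TP53INP1, a stress-induced nuclear protein that acts in p53-dependent cell death and in autophagy, had the largest fold change of the 9 genes and the lowest level. The gene (Entrez 94241) lies on chromosome 8. Its raw counts were 22, 10 and 13 in sh-NC and 157, 100 and 54 in shRBM10, and its normalized counts 19.95, 13.7 and 11.7 against 161, 95.8 and 51.9. Every shRBM10 library was above every control, and the lowest of them was still over the highest control by a wide margin. The means were 15.1 ± 4.29 (SD, n = 3) and 103 ± 55.0 (SD, n = 3), with a log2 fold change of 2.75 (standard error 0.47, unadjusted p = 0.000184, edgeR adjusted p = 0.0894). The fold change was 2.02 with the GC trend removed (edgeR adjusted p = 0.0850), and 2.27 to 3.01 when any 1 library was left out. DESeq2 gave an adjusted p of 3.9e-05, and edgeR with no filter on low counts one of 0.0407. Its relative TP53INP2 had means of 72.1 ± 16.7 and 106 ± 17.0 (SD, n = 3 each), with groups that did not overlap. The log2 fold change of TP53INP2 was 0.54 (edgeR adjusted p = 0.279), 0.30 without sh-NC replicate 2 and 0.35 without library C. With the GC trend removed it was 0.75 (unadjusted p = 0.0152 from edgeR's model).

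In CDKN1A and GADD45A nearly all counts lay in a single transcript. NM_000389 held 96.6% of the CDKN1A counts in sh-NC and 97.1% in shRBM10, and NM_001924 held 98.8% and 98.7% of those of GADD45A. In the low genes the estimates of single transcripts jumped between libraries of a group, so that their shares carry little weight. The RRM2B transcript NM_015713 had 176, 0 and 121 estimated counts in the controls against 309, 284 and 165, while NM_001172478 held the 41 counts of sh-NC replicate 2 alone among the controls, and NM_001172477 had 16, 0 and 35 there. For TP53INP1, NM_001135733 had 9, 0 and 0 in the controls against 88, 84 and 0, and NM_033285 had 0, 10 and 13 against 69, 16 and 38, with the rest in XM_011517386. Both TP53INP1 transcripts were highest in library A, and library C had counts of NM_033285 without any of NM_001135733. In ZMAT3, NM_022470 and NM_152240 held 13.2% and 3.2% of the gene in sh-NC against 27.2% and 23.8% in shRBM10. NM_001375828 and XM_011513073 held 18.01% and 12.2% in sh-NC and had 0 counts in shRBM10, and neither of them entered the test of transcript usage. The predicted MDM2 transcripts XM_006719399 and XM_006719400 held 13.6% and 19.7% in sh-NC and 19.9% and 3.1% in shRBM10.

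**Figure D2:**
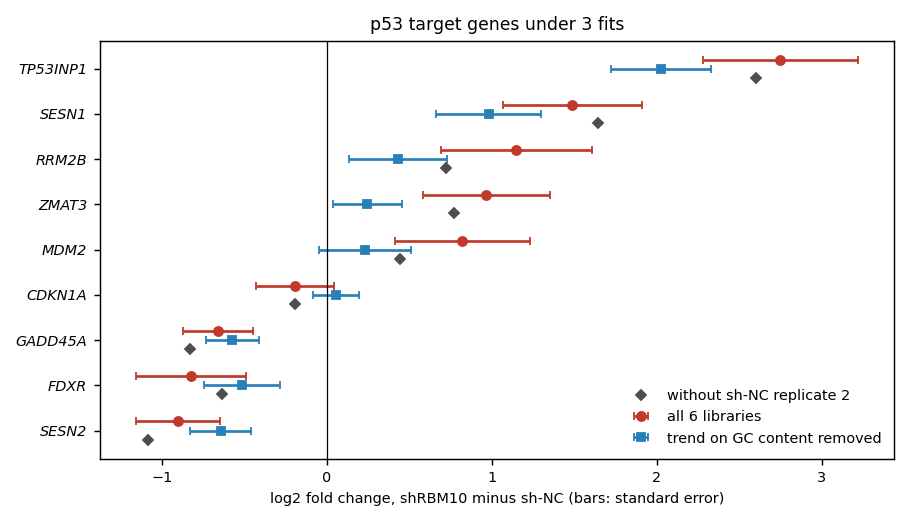
Log2 fold change (shRBM10 minus sh-NC, x axis) of the 9 genes in the fit on all 6 libraries (red circles), after removal of the GC trend of each library (blue squares) and without sh-NC replicate 2 (grey diamonds); bars are standard errors and are not drawn for the diamonds. TP53INP1, SESN1, RRM2B, ZMAT3 and MDM2 stayed above 0 and SESN2, GADD45A and FDXR below 0 in all 3 fits, while CDKN1A changed sign. MDM2, ZMAT3, RRM2B, TP53INP1 and FDXR lay nearer to 0 in both other fits than in the fit on all 6 libraries.

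The sign of the fold change went with the GC content of the 9 genes. The 5 genes with higher means in shRBM10 had transcripts of 36.4% GC (RRM2B), 39.5% (ZMAT3), 39.6% (TP53INP1), 41.9% (MDM2) and 43.4% (SESN1). The other 4 genes had 51.5% (GADD45A), 58.1% (CDKN1A), 59.5% (SESN2) and 61.8% (FDXR). Over these 9 genes, which share the same 6 libraries, the Pearson correlation of GC content with the log2 fold change was -0.84, and -0.69 after removal of the trend. Among all genes tested the median log2 fold change was 0.71 in the lowest of 4 equal bins of GC content, 0.28 and -0.19 in the middle bins, and -0.33 in the highest. The trend differed between libraries of the same group. At the GC content of RRM2B it was 0.78 in library A, 0.50 in library B, -0.22 in library C and -0.61 in sh-NC replicate 2, on the log2 scale relative to the mean of the libraries. At that of SESN2 it was -0.33, -0.22, 0.12 and 0.22 in the same order.

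With the trend removed, 2 of the 9 genes were higher at an unadjusted p under 0.05, TP53INP1 and SESN1, where 8.42% of all genes were, and 2 were lower, GADD45A and SESN2, where 9.72% were. Their median log2 fold change was 0.82 as fitted and 0.23 with the trend removed, against 0.03 and -0.02 over all genes tested. Without sh-NC replicate 2 the counts were 2 higher and 2 lower, where 11.5% and 12.8% of all genes were, and the median was 0.44, as it also was without library A.

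Per kilobase of transcript the 9 genes covered a wide range. In sh-NC the order was GADD45A (1765 ± 183), CDKN1A (900.5 ± 89.4), SESN2 (492 ± 61.8), FDXR (91.1 ± 27.0), RRM2B (25.1 ± 12.3), MDM2 (19.3 ± 7.53), ZMAT3 (11.1 ± 1.92), SESN1 (9.10 ± 2.62) and TP53INP1 (2.68 ± 0.76), all as normalized counts per kb (mean ± SD, n = 3). The ranges of the first 4 genes did not overlap with each other or with those of the rest. RRM2B, MDM2, ZMAT3 and SESN1 overlapped with their neighbors in that order, and TP53INP1 lay below them all. In shRBM10 the first 3 places were the same, and the low genes lay closer together, with means from 18.3 for TP53INP1 to 56.0 for RRM2B.

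**Figure D3:**
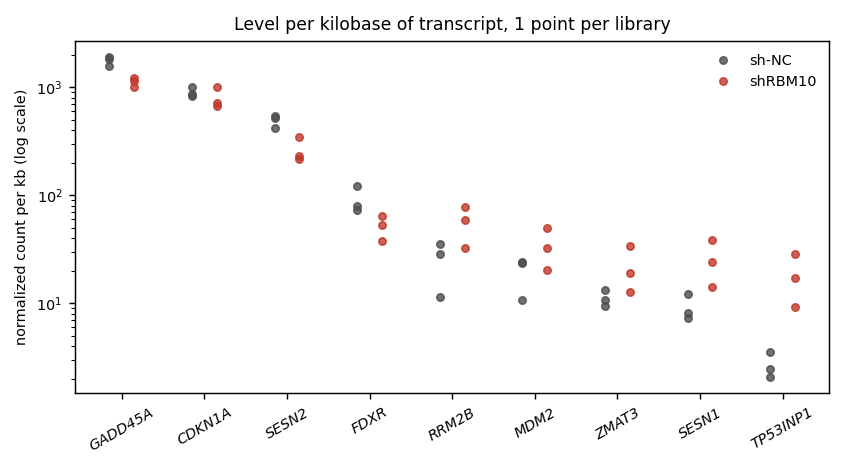
Normalized count per kilobase of the longest transcript (y axis, log scale) of the 9 genes (x axis, ordered by the sh-NC mean), with 1 point per library (grey, sh-NC; red, shRBM10). The 3 most abundant genes sit well above the rest in both groups, and TP53INP1 lies nearer to the other low genes in shRBM10 than in sh-NC.

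CDKN1A and MDM2 were each compared with the 11070 other genes with a mean count of at least 50. The genes whose log2 levels were most like those of CDKN1A over the 6 libraries were MGAT1, METRNL and DEAF1 (Pearson correlation 0.997, 0.996 and 0.996), and those most like MDM2 were ZNF623, IPMK and RNF168 (0.999 for each). The 6 points share their libraries and their GC trends and are a description. CDKN1A and MDM2 themselves had opposite patterns over the libraries, with a correlation of -0.90, while MDM2 and RRM2B had one of 0.98.

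The rest of the p53 program, from a list of 34 further targets, was higher about as often as lower. Of the 32 that were tested, 4 were higher and 5 lower at an unadjusted p under 0.05 (15.7% and 8.6% of all genes), 23 passed in neither direction, 0 were called by edgeR and 2 by DESeq2 (1 in each direction), and the median log2 fold change was -0.02. Leaving out 1 library gave 1 (without B) to 6 (without sh-NC replicate 2 or C) higher and 3 (without A or B) to 9 (without C) lower. Over all genes, 1015 of 12761 were higher without B, 11.5% without sh-NC replicate 2 and 2589 of 12762 without C. Lower were 400 of 12716 genes without A, 384 of 12761 without B and 2028 of 12762 without C. DRAM1, a lysosomal protein that promotes autophagy, had means of 182 ± 31.0 in sh-NC and 325 ± 83.7 in shRBM10 (SD, n = 3 each) and a log2 fold change of 0.84 (edgeR adjusted p = 0.170). AEN, an apoptosis-enhancing nuclease, had 1131 ± 182 and 472 ± 21.5 (SD, n = 3 each), a log2 fold change of -1.26 (edgeR adjusted p = 0.10) and one of -1.20 with the GC trend removed. PRKAB1, a regulatory subunit of AMPK, and SERTAD1, a regulator of CDK4, had log2 fold changes of -0.86 and -0.83 (edgeR adjusted p = 0.153 and 0.178), and SERTAD1 was at -0.50 without sh-NC replicate 2. The death genes BAX, BBC3 and PMAIP1 had -0.41, -0.10 and 0.34, none under an unadjusted p of 0.05.

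Among 19 regulators of p53, 4 were higher and 1 was lower at an unadjusted p under 0.05 (15.7% and 8.6% of all genes), and their median log2 fold change was 0.10. With the GC trend removed 1 was higher and 2 were lower, where 8.42% and 9.72% of all genes were. Without library A or B 2 were higher and 1 was lower. Over all genes, 717 of 12716 were higher and 400 lower without A, and 1015 of 12761 were higher and 384 lower without B. TP53BP1, a chromatin protein of the double-strand break response, had a log2 fold change of 1.47 (edgeR adjusted p = 0.158), and the p53 relatives TP63 and TP73 had 0.95 and -0.99 (edgeR adjusted p = 0.162 and 0.155). Their values with the GC trend removed were 1.16, 0.44 and -0.69. Of 16 tested relatives and partners of the 9 genes, 1 was higher (RRM1) and 1 was lower (GADD45B) at that limit, with a median of -0.22, and 0 of either without library A or B.

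Cell-cycle genes that p21 and the DREAM complex repress were read beside CDKN1A. Of 15 such genes 1 was higher and 5 were lower at an unadjusted p under 0.05 (15.7% and 8.6% of all genes), and their median log2 fold change was -0.45. Without sh-NC replicate 2 these were 0 and 3 with a median of -0.27, where 11.5% and 12.8% of all genes were. With the GC trend removed they were 0 and 8 with a median of -0.66, where 8.42% and 9.72% of all genes were. Without library A or B they were 0 and 2. Over all genes, 717 of 12716 were higher and 400 lower without A, and 1015 of 12761 were higher and 384 lower without B. The survival factor BIRC5, the mitotic transcription factor FOXM1 and the phosphatase CDC25C had log2 fold changes of -1.17, -1.03 and -0.99 (edgeR adjusted p = 0.133, 0.137 and 0.190), of which CDC25C was at -0.38 without sh-NC replicate 2. CDKN1A, whose product acts upstream of them, was at -0.19. Of 9 ATF4 targets and stress genes, read beside SESN2, 0 were higher and 4 were lower at that limit, with a median of -0.60. That median was -0.33 without sh-NC replicate 2 and -0.35 with the GC trend removed, where 3 were lower, and 2 were lower without library B. The pseudokinase TRIB3, the transcription factor ATF3 and the mTORC1 inhibitor DDIT4 had log2 fold changes of -0.86, -0.78 and -0.67 (edgeR adjusted p = 0.153, 0.156 and 0.165).

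**Figure D4:**
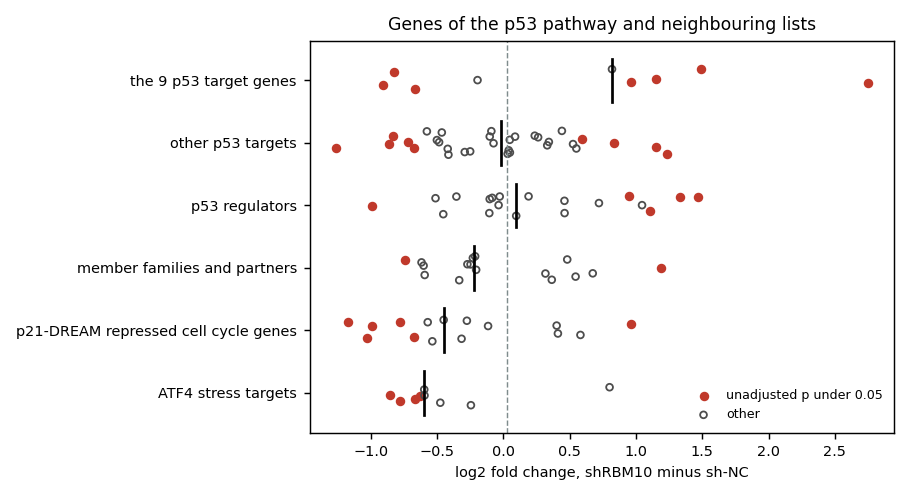
Log2 fold change (shRBM10 minus sh-NC, x axis) of each tested gene in 6 lists (rows), filled red where the unadjusted p was under 0.05 and open otherwise; black lines are list medians and the dashed line is the median of all genes tested. The 9 p53 target genes spread from -0.90 to 2.75, the widest range of the 6 lists, through TP53INP1 alone, as the next gene, SESN1, lies at 1.49. The 32 further targets spread from -1.26 to 1.23 and the regulators from -0.99 to 1.47. Most of the 9 genes and most of the 32 further targets lie within 1 of 0.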

How the data were processed

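The authors deposited a gene table (16306 genes) and a table of 76563 RefSeq transcripts that give each library in 4 measures: estimated counts, FPKM, TPM and a normalized count; BGI-Tech did the sequencing. Only the deposited estimated counts were used. Of these, 87.5% of gene values and 41.1% of transcript values are whole numbers. The submitters' processing notes name the build hg38; the aligner, counter and annotation are not given in the sources used here. The 18 other per-library columns and 8 group means in each table were not used. The labels' protocols mention retinas and more than 1 library kit, with no kit tied to a library.

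Estimated counts were rounded, filtered with filterByExpr, which kept 12620 genes, scaled by TMM and tested by edgeR's quasi-likelihood method (edgeR 4.0.16, limma 3.58.1, R 4.3.3) on all 6 libraries with no covariate. P-values were adjusted by Benjamini-Hochberg over all genes tested, and a call needed an adjusted p under 0.05 plus a log2 fold change beyond 1 in either direction. Transcript usage was tested with diffSpliceDGE on rounded transcript counts. GC content and length are those of the longest GENCODE transcript of a gene (release 29, GRCh38); 99.6% of the genes tested had one. The GC trend of a library is a loess curve (span 0.4) of log2 CPM (prior count 2), relative to the mean of the libraries, on GC content, and was removed as an offset. Total counts per library, 16606408 to 18864257, limit precision most for TP53INP1 and SESN1; they cover counting error only. sh-NC replicates 1 and 3 had a chi-square per degree of freedom of 2.93 and every other pair of libraries at least 29.7, so all were kept as separate libraries.

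Named genes are the 9 genes, RBM10, MDM4 and relatives of the 9 genes; from each further list up to 3 per direction with the largest fold change among those at an unadjusted p under 0.05, with groups that do not overlap and a mean count of at least 50; the 3 genes most correlated with CDKN1A and with MDM2; and transcripts with at least 10% of a gene's counts. BAX, BBC3, PMAIP1, the MDM2 transcripts NM_001145337, NM_001278462 and NM_001145340 and the printed promoter windows were chosen after their values were seen. The 9 genes, the lists and the GC correction were chosen with earlier results of these data known. Some genes that this rule or the marker lists name are not reported here. Scripts were tested on simulated counts. Alternatives were DESeq2 1.42.0, limma-voom, RLE, upper-quartile and library-size-only scaling, other count filters and thresholds, the GC correction and leaving out each library.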

Additional observations from a re-analysis of the deposited data

How the results depend on the processing

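No paired analysis was possible because shRBM10 libraries B and C carry no replicate number, so the groups share fewer than 2 numbers. Of the 9 genes, 0 were called in the fit as reported, 2 by DESeq2 and 1 with no filter on low counts. With the GC trend removed and sh-NC replicate 2 left out (chosen after seeing the data), 2 were called. At an unadjusted p under 0.05 from edgeR with no fold limit 7 passed, where 24.3% of all genes did. The number higher at an unadjusted p under 0.05 was 2 with the GC trend removed (8.42% of all genes), also without sh-NC replicate 2 (11.5% of all genes). The number lower was 1 with scaling by library size only (727 of 12620 over all genes), and so was the number lower without overlap. That scaling moved the median of all genes by 0.13 on the log2 scale and that of the other p53 targets to 0.12. The median of the 9 genes was 0.23 with the GC trend removed and 0.10 with sh-NC replicate 2 left out as well. The log2 fold change of CDKN1A reversed to 0.057 and 0.099 in these fits, and that of MDM2 to -0.012 in the latter. When 1 library was left out, the number called stayed at 0, the number higher was 2 to 4 and the number lower 1 to 4. Over all genes, the number higher in these fits ran from 717 of 12716 (without A) to 2589 of 12762 (without C). The number lower ran from 384 of 12761 (without B) to 2028 of 12762 (without C). The number higher without overlap was 2 (as reported) to 5, with 4 without sh-NC replicate 1 and 5 without library C. Fewer libraries make separation easier, and no share of all genes without overlap is given for these fits. The counts without overlap therefore describe the 9 genes only. TP53INP1, SESN1, RRM2B, ZMAT3, GADD45A, SESN2 and FDXR kept their sign in every alternative. The lowest values of ZMAT3 and RRM2B were 0.245 (GC trend removed) and 0.188 (sh-NC replicate 2 left out as well). Over all genes edgeR called 2, DESeq2 573, edgeR with no filter 31, with the GC trend removed 4, without sh-NC replicate 2 as well 267, and 0 to 23 when 1 library was left out. For transcript usage 9 genes were called, 0 with at least 10 counts in every library and 5 to 14 when 1 library was left out. The causes of these differences were not tested. With 10 to 22 counts of TP53INP1 and 28 to 31 of SESN1 in sh-NC, their fold changes rest on few reads.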

Other observations

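Among the further p53 targets with fewer than 50 counts on average, ACER2, an alkaline ceramidase that releases sphingosine from ceramide, and FAS, a death receptor, were also higher in every shRBM10 library than in every sh-NC library. ACER2 had normalized counts of 28.3 in sh-NC and 66.8 in shRBM10 on average and a log2 fold change of 1.23, or 1.12 with the GC trend removed. FAS had 20.4 and 45.7 on average and a log2 fold change of 1.15, or 0.45 with the GC trend removed. Neither passed the adjusted threshold of edgeR's test. Both genes were picked after their values were seen.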
